A study of Mus musculus with 5 samples.

Results

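DNA replication and S-phase genes form a group of 37 named genes that encode the proteins which license origins, unwind and copy DNA, supply nucleotides, rebuild chromatin behind the fork and drive entry into S phase. The members were taken by gene symbol from a list that was drawn up with earlier results of these data known, by a rule that uses no measured level, and all 37 matched a locus among the 23141 loci that carry a gene name. Each member's locus carried no second gene name. All 37 passed the filter on low counts and were among the 15241 loci tested.

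Total RNA was sequenced from the uvea, the pigmented middle coat of the eye, in 2 libraries of adult mice of wild-type genotype, and from tumors of the eye in 3 libraries of adult mice of the genotype AAV5-Cre;Lats1/2 fl/fl. In the tumor group, an adeno-associated virus carrying Cre recombinase was injected, and Cre removes the floxed parts of Lats1 and Lats2, the kinase genes of the Hippo pathway. No virus or floxed allele is named for the wild-type group. The sources used here do not give the promoter that drives Cre, the age in weeks or the number of animals behind each library. No label ties each library to an animal of its own. The p-values therefore describe only how these libraries spread, which may be technical.

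Before S phase, the origin recognition complex, Cdc6 and Cdt1 load the MCM helicase on DNA, and at S phase Cdc45, the GINS complex and Mcm10 turn it into an active helicase. Primase and the replicative polymerases then copy the strands on the sliding clamp PCNA, while ribonucleotide reductase and thymidylate enzymes supply deoxynucleotides. Many of these genes are known targets of E2F factors, whose activity is released when cyclin-dependent kinases phosphorylate the retinoblastoma protein. Cells of an adult uvea divide rarely, so transcripts of this machinery are commonly read as a measure of the cycling cells in a tissue.

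The libraries held 12687703 to 14368272 estimated fragments. Lats1 measured 7.55 and 8.86 FPKM (fragments scaled by transcript length and library depth) in wild-type libraries 1 and 2 and 3.43, 3.90 and 2.94 FPKM in tumor libraries 1, 2 and 3, and it fell with a log2 change of -1.21 (SE 0.176, adjusted p = 0.0115) by edgeR's quasi-likelihood test. Lats2 measured 20.05 and 20.2 FPKM and 12.6, 17.03 and 14.3 FPKM in the same order, a log2 change of -0.62 (SE 0.186, adjusted p = 0.0577), and did not pass the threshold of 0.05 with all libraries (adjusted p = 0.0168 without tumor 2). These values cover the whole gene, not only the floxed part. The study calls the tumors uveal melanoma, a tumor of pigment cells. All 6 pigment cell markers, among them Dct and Pmel, were present in wild-type uvea (summed level 6616 and 6391 FPKM) and fell in the tumors (15.4, 29.9 and 8.88 FPKM), none of them at 0. The 7 photoreceptor markers fell too, from a summed 1167 and 1261 FPKM to 1.48, 3.35 and 5.13 FPKM. Of 13 leukocyte markers 9 rose and none was at 0 in any library. All 13 summed to 143 and 155 FPKM in wild type and 435, 352 and 809 FPKM in tumors 1, 2 and 3. Much of these sums came from Csf1r and Cd68, which did not pass by edgeR (adjusted p = 0.0735 and 0.0911). Csf1r measured 86.1 and 96.5 FPKM in wild type and 158, 142 and 265 FPKM in the tumors. Cd68 measured 34.3 and 36.9 FPKM and 68.1, 59.1 and 181 FPKM. The 6 skeletal muscle markers summed to 8196 FPKM in tumor 1 and to 454 to 612 FPKM in the other 4 libraries, and 0 of them passed. Of the other marker lists, 5 of 6 for retinal pigment epithelium and 4 of 4 tested for red blood cells fell. For fibroblasts 3 of 6 rose. In these 6, every tumor lay above wild type in 4, the groups overlapped in 1, and Dcn lay below in every tumor. Of 6 for endothelium 1 fell, and of 6 for epithelium 1 rose and 1 fell, each a share of 16.7%. Over all tested loci 18.7% rose and 15.4% fell, so the endothelial and epithelial shares were near those of all loci.

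Of the 37 genes, 16 rose and 0 fell (edgeR's quasi-likelihood test, adjusted p under 0.05 over all loci tested), a share of 43.2% against 18.7% of all tested loci that rose and 15.4% that fell. The log2 fold change of tumor over wild type was above 0 for 36 genes and past 1 for 22 of them, and its median was 1.28 against 0.05 over all tested loci. In 35 genes every tumor library lay above both wild-type libraries, which held for 33.7% of all tested loci. Pold1 overlapped between the groups, and Rpa2 was the one gene with every tumor library below wild type. In bulk tissue, more cells in S phase and more RNA per cell cannot be told apart, and the part of leukocytes in these values was not tested.

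The 21 genes that did not pass included 6 with an adjusted p between 0.05 and 0.07. By edgeR, 26 of the 37 had an unadjusted p under 0.05, as did 7309 of all 15241 loci tested. DESeq2 on the same counts called 23 genes as higher, beside 24.2% of all tested loci, and limma-voom called 10, beside 16.3%. With 2 wild-type libraries, the calls rest on both of them: with either one left out, edgeR called no locus. The median log2 fold change of the members by edgeR was 1.22 without wild-type library 1 and 1.21 without wild-type library 2. Over all tested loci it was 0.02 and 0.03 in these sets. DESeq2 called 8 and 7 members in the same reduced sets, beside 10.6% and 10.2% of loci. Without tumor 1, edgeR called 9 members, beside 15.9% of loci.

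**Figure D1:**
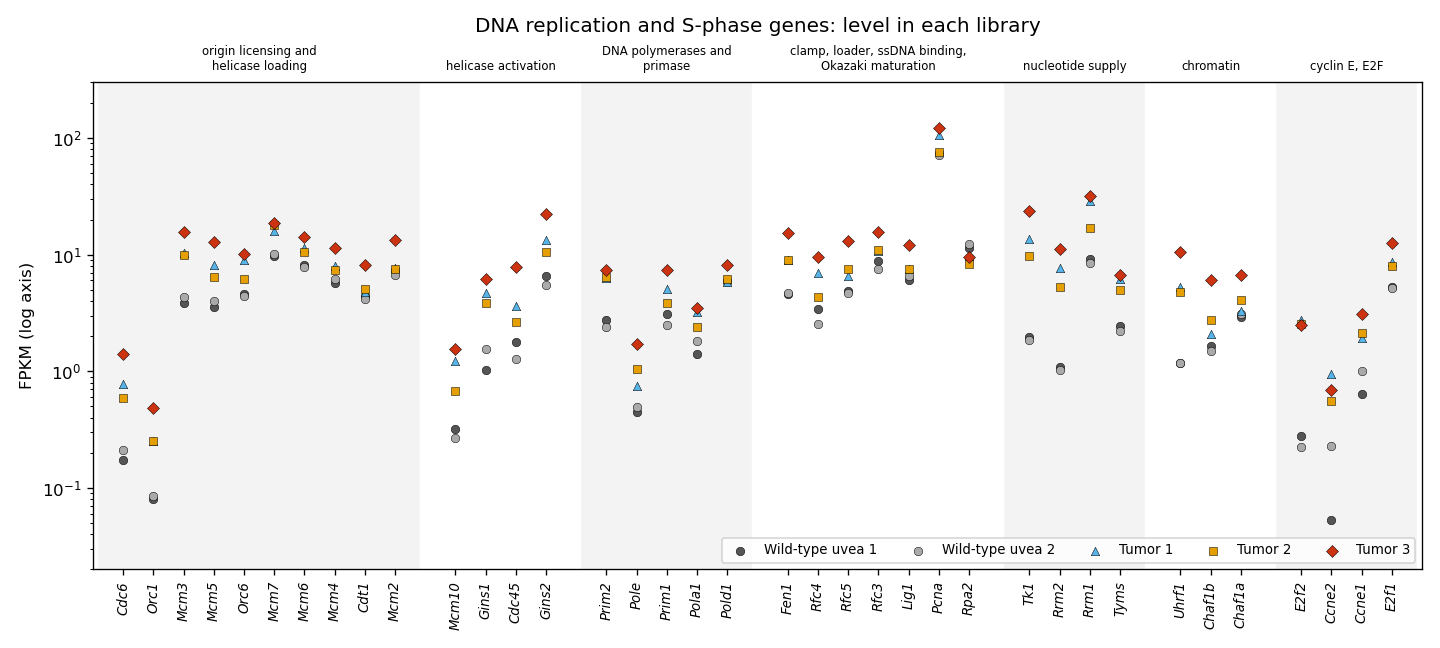
Level of each of the 37 genes in each library, in FPKM on a log axis, grouped by role and ordered within a role by fold change; each point is 1 library. The 3 tumor libraries lie above both wild-type libraries in 35 genes, with Pold1 and Rpa2 as the exceptions, and Pcna has the highest level of all.

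The promoters of the 37 genes, whatever their call, were taken from RefSeq on GRCm38.p6 as windows of 250 bases before and 50 bases from each annotated start. The table held a window for 31 of the 37 genes. The E2F motif was searched as TTTCCCGC, TTTCGCGC, TTTGCCGC or TTTGGCGC on both strands, and 13 of the 31 genes (41.9%) held a match against 704 of the 27025 genes in the table (2.605%). By call, a match stood in 6 of 14 genes that rose and in 7 of 17 that did not pass. In the lists described below, the E2F share was 27.7% for other replication genes, 32% for G1/S regulators and 4.35% for mitosis genes. The CCAAT motif, which could overlap an E2F match, was found in 19 of the 31 (61.3%) against 41.1% of all genes. Its share was 48.9% for other replication genes, 56% for G1/S regulators and 78.3% for mitosis genes. The letters TTTGAA, the CHR element of many G2 and mitosis genes, were found in 4 of the 31 (12.9%) against 20.2% of all genes and 17 of 23 mitosis genes (73.9%). A match is a description of letters and not a binding site.

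The stretches below show 6 genes that rose and a pair that did not pass (Mcm6 and Pola1), to let the E2F matches be compared. Each runs 5′ to 3′ on the gene's strand, and capitals mark E2F matches. For Mcm5 (chr8:75109346-75109508, plus strand), Cdc6 (chr11:98908003-98908150, plus strand), Uhrf1 (chr17:56304118-56304312, plus strand, at one of its starts), Mcm6 (chr1:128359706-128359825, minus strand) and Pola1 (chrX:93632156-93632303, minus strand) the stretch runs from 10 bases before the first match to the last base before the start. For Mcm7 (chr5:138172029-138172058, minus strand), Mcm3 (chr1:20820265-20820294, minus strand) and E2f2 (chr4:136172303-136172323, plus strand) a short window around a match is given. The Mcm7 window begins 175 bases before the start, and those of Mcm3 and E2f2 begin at bases 19 and 30 counted from the RefSeq start.
Mcm5: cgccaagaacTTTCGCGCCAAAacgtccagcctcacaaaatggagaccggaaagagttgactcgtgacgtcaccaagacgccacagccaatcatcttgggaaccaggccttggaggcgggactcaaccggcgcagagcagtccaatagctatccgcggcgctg
Cdc6: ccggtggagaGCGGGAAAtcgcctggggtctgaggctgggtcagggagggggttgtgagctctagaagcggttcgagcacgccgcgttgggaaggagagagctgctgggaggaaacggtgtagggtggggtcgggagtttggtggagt
Uhrf1: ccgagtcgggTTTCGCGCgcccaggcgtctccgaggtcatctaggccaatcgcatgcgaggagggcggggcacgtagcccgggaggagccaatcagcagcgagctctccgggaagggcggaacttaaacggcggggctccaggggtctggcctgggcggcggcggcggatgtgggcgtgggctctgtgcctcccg
Mcm7: atttcgaaccGCGGGAAAcagggtgtccaa
Mcm3: gGCGGGAAAacttgggaagtTTTGGCGCca
E2f2: cggcatatagTTTGGCGCtaa
Mcm6: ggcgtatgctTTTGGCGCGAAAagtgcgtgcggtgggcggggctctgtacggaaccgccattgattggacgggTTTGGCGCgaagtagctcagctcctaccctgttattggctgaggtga
Pola1: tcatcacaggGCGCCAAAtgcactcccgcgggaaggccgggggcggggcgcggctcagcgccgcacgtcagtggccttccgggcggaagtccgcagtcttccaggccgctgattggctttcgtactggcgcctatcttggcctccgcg
Mcm5 and Mcm6 each hold a pair of overlapping matches on opposite strands, seen as a longer run of capitals, and Mcm6 has a further match nearer to its start. Both are subunits of the same helicase ring, and Mcm5 rose while Mcm6 did not pass.

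Origin licensing came first in the order of roles, and 4 of its 10 genes rose (40%, beside 18.7% of all tested loci). Cdc6, the ATPase that joins the origin recognition complex to load MCM, lies at chr11:98907889-98923942 (mm10) and measured 0.173 and 0.210 FPKM in the wild-type libraries and 0.779, 0.592 and 1.41 FPKM in tumors 1, 2 and 3. It rose with a log2 change of 2.30 (SE 0.540, adjusted p = 0.0325), and the tumors lay above wild type without overlap. Without tumor 1 the adjusted p of Cdc6 was 0.0536. Mcm3, a subunit of the MCM2-7 ring, lies at chr1:20803014-20820213, measured 3.88 and 4.34 FPKM in wild type and 10.4, 9.99 and 15.6 FPKM in the tumors, and rose with a log2 change of 1.60 (SE 0.267, adjusted p = 0.0155). Its neighbour in the ring Mcm5, at chr8:75109528-75128439, measured 3.54 and 3.96 FPKM and then 8.16, 6.48 and 12.8 FPKM, and rose with a log2 change of 1.33 (SE 0.340, adjusted p = 0.0392). In both MCM genes tumor 3 was the highest library and no tumor library reached down to wild type, and without tumor 1 the adjusted p of Mcm5 was 0.0675. Mcm7 had a narrower spread over the tumors, with 9.64 and 10.1 FPKM in wild type against 15.8, 18.1 and 18.5 FPKM, and rose with a log2 change of 0.85 (SE 0.139, adjusted p = 0.0149).

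The other 6 licensing genes did not pass, although each was above wild type in all 3 tumors. Orc1, the large ATPase subunit of the origin recognition complex, had the lowest mean level of the group in wild type, at 0.0795 and 0.0857 FPKM, against 0.2501, 0.254 and 0.480 FPKM in the tumors, and rests on 3 fragments in each wild-type library. Its log2 fold change was 1.99 (SE 0.628, adjusted p = 0.0645). Orc6, the smallest subunit of that complex, measured 4.61 and 4.43 FPKM in wild type and 8.97, 6.15 and 10.2 FPKM in the tumors, with a log2 change of 0.96 (SE 0.306, adjusted p = 0.0656). Tumor 2 was the nearest to wild type, and without it the adjusted p was 0.0255. Cdt1, the loading factor that is destroyed in S phase, measured 4.38 and 4.16 FPKM and 4.75, 5.06 and 8.21 FPKM, with a log2 change of 0.54 (SE 0.328, adjusted p = 0.252) and tumors 1 and 2 close to wild type. Mcm6 measured 8.16 and 7.76 FPKM and 11.4, 10.5 and 14.2 FPKM, with a log2 change of 0.65 (SE 0.185, adjusted p = 0.0514), and passed without tumor 2 (adjusted p = 0.0387). Mcm4 measured 5.68 and 6.17 FPKM and 8.02, 7.32 and 11.4 FPKM, with a log2 change of 0.64 (SE 0.242, adjusted p = 0.0977), and all its tumor values lay above wild type. Mcm2 had a log2 change of 0.49 (SE 0.319, adjusted p = 0.278), with 7.40 and 6.69 FPKM in wild type and 7.62, 7.53 and 13.5 FPKM in the tumors: tumors 1 and 2 lay close to wild type and tumor 3 stood apart.

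Of the 4 genes that activate the helicase, 2 rose (50%, beside 18.7% of all tested loci). Mcm10, which binds the activated helicase and recruits polymerase alpha, measured 0.316 and 0.268 FPKM in wild type and 1.22, 0.671 and 1.55 FPKM in the tumors, and rose with a log2 change of 2.01 (SE 0.515, adjusted p = 0.0398). Gins1, a subunit of the GINS complex, measured 1.01 and 1.55 FPKM and 4.71, 3.87 and 6.14 FPKM, and rose with a log2 change of 1.95 (SE 0.526, adjusted p = 0.0444). Neither passed without tumor 1, at an adjusted p of 0.0769 for Mcm10 and 0.0839 for Gins1, or without tumor 3, at 0.0523 and 0.0627. Cdc45, the third part of the active helicase, measured 1.77 and 1.28 FPKM in wild type and 3.60, 2.64 and 7.78 FPKM in the tumors with tumor 3 far above the other tumors, and its log2 fold change of 1.53 (SE 0.590, adjusted p = 0.103) did not pass. Gins2 measured 6.53 and 5.49 FPKM and 13.3, 10.5 and 22.1 FPKM, with a log2 change of 1.36 (SE 0.406, adjusted p = 0.0564), and passed without tumor 2 (adjusted p = 0.0298). All 4 genes had their lowest tumor level in tumor 2 and their highest in tumor 3.

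Among the 5 genes for polymerases and primase, Prim2 rose, a share of 20% near the 18.7% of all tested loci that rose. Prim2, the large primase subunit, measured 2.75 and 2.39 FPKM in wild type and 6.25, 6.42 and 7.44 FPKM in the tumors, a tight group well above wild type, with a log2 change of 1.44 (SE 0.249, adjusted p = 0.0166). Prim1, the catalytic primase subunit, measured 3.08 and 2.48 FPKM and 5.08, 3.81 and 7.40 FPKM, with a log2 change of 1.01 (SE 0.395, adjusted p = 0.106), and its tumor libraries were more spread than those of Prim2. Pola1, the catalytic subunit of polymerase alpha, measured 1.40 and 1.81 FPKM and 3.25, 2.38 and 3.49 FPKM, with a log2 change of 0.97 (SE 0.278, adjusted p = 0.0509), and passed without tumor 2 (adjusted p = 0.0318). Pole, which copies the leading strand, measured 0.451 and 0.498 FPKM in wild type and 0.740, 1.04 and 1.72 FPKM in the tumors, with a log2 change of 1.34 (SE 0.451, adjusted p = 0.0751). Pold1, the catalytic subunit of polymerase delta on the lagging strand, was nearly level at 5.91 and 5.85 FPKM against 5.82, 6.13 and 8.14 FPKM, and its log2 fold change was 0.24 (SE 0.212, adjusted p = 0.420). Tumor 1 lay just below both wild-type libraries, and tumors 2 and 3 lay above them.

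Of 7 genes for the clamp, its loader, single-strand binding and Okazaki fragments, Fen1 rose. This share of 14.3% was near the 18.7% of all tested loci that rose. Fen1, the nuclease that trims the flaps of Okazaki fragments, measured 4.59 and 4.71 FPKM in wild type and 8.98, 8.90 and 15.2 FPKM in the tumors, with a log2 change of 1.28 (SE 0.306, adjusted p = 0.0337). Lig1, the ligase that seals those fragments, measured 6.08 and 6.55 FPKM and 7.47, 7.58 and 12.02 FPKM, with a log2 change of 0.55 (SE 0.270, adjusted p = 0.167), and tumor 3 was the farthest from wild type. Pcna, the sliding clamp, had the highest level of the 37 genes in every library, with 73.9 and 71.7 FPKM in wild type and 106, 76.1 and 123 FPKM in the tumors. Tumor 2 lay just above wild type, and the log2 fold change of 0.53 (SE 0.239, adjusted p = 0.145) did not pass except without tumor 2 (adjusted p = 0.0307). The clamp loader gene Rfc3 measured 8.78 and 7.48 FPKM in wild type and 10.7, 11.02 and 15.5 FPKM in the tumors, with a log2 change of 0.66 (SE 0.278, adjusted p = 0.126). Rfc4 measured 3.39 and 2.54 FPKM and 6.96, 4.30 and 9.50 FPKM, with a log2 change of 1.27 (SE 0.450, adjusted p = 0.0852), and passed without tumor 2 (adjusted p = 0.0323). Rfc5 measured 4.85 and 4.68 FPKM and 6.59, 7.60 and 13.03 FPKM, with a log2 change of 0.94 (SE 0.367, adjusted p = 0.107). In all 3 loader genes the tumors lay above wild type with tumor 3 the highest. Rpa2, the middle subunit of the single-strand binding protein RPA, went the other way at 11.5 and 12.3 FPKM in wild type and 9.80, 8.36 and 9.55 FPKM in the tumors, with a log2 change of -0.31 (SE 0.182, adjusted p = 0.231) that did not pass.

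All 4 genes of nucleotide supply rose, beside 18.7% of all tested loci. Tk1, the S-phase thymidine kinase of the salvage pathway, lies at chr11:117815519-117839908, measured 1.98 and 1.86 FPKM in wild type and 13.7, 9.74 and 23.5 FPKM in the tumors, and rose with a log2 change of 3.07 (SE 0.483, adjusted p = 0.0137). Rrm2, the S-phase small subunit of ribonucleotide reductase, at chr12:24708254-24714146, measured 1.09 and 1.015 FPKM and 7.68, 5.27 and 11.2 FPKM, and rose with a log2 change of 2.98 (SE 0.427, adjusted p = 0.0111). Tumor 2, the lowest tumor library in both genes, was 5.07 times the wild-type mean for Tk1 and 4.997 times for Rrm2 by FPKM. Rrm1, the large subunit of the same enzyme, started higher at 9.14 and 8.46 FPKM, measured 28.7, 16.8 and 31.7 FPKM in the tumors, and rose with a log2 change of 1.60 (SE 0.320, adjusted p = 0.0224), a call that was lost without tumor 1 (adjusted p = 0.0504). Tyms, the enzyme that makes thymidylate from deoxyuridylate, measured 2.44 and 2.21 FPKM and 6.13, 5.01 and 6.69 FPKM, with a log2 change of 1.40 (SE 0.222, adjusted p = 0.0138).

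In the chromatin group 1 of 3 genes rose (33.3%, beside 18.7% of all tested loci). Uhrf1, which reads hemimethylated DNA behind the fork and brings in the maintenance methyltransferase, measured 1.17 and 1.17 FPKM in wild type and 5.25, 4.76 and 10.6 FPKM in the tumors, and rose with a log2 change of 2.60 (SE 0.464, adjusted p = 0.0176). Chaf1a and Chaf1b encode subunits of CAF-1, the chaperone that places new histones. Chaf1a measured 2.90 and 3.10 FPKM in wild type and 3.25, 4.07 and 6.71 FPKM in the tumors, with a log2 change of 0.78 (SE 0.327, adjusted p = 0.122). Chaf1b measured 1.66 and 1.503 FPKM and 2.10, 2.75 and 6.06 FPKM, with a log2 change of 1.25 (SE 0.564, adjusted p = 0.145). In both genes tumor 3 stood above the other tumors and tumor 1 was the nearest to wild type.

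Of the 4 genes for cyclin E and E2F factors, 3 rose (75%, beside 18.7% of all tested loci). E2f2, an activator E2F factor at chr4:136172394-136196056, had the largest log2 fold change of the 37 genes. It measured 0.276 and 0.223 FPKM in wild type and 2.76, 2.52 and 2.50 FPKM in the tumors, an even level over the 3 tumors, and rose with a log2 change of 3.51 (SE 0.308, adjusted p = 0.00523). Ccne1, the cyclin that drives Cdk2 at the start of S phase, measured 0.637 and 1.01 FPKM and 1.93, 2.12 and 3.08 FPKM, and rose with a log2 change of 1.57 (SE 0.432, adjusted p = 0.0462), a call that was lost without any 1 of the tumors (adjusted p = 0.0612, 0.0530 and 0.0567 without tumors 1, 2 and 3). E2f1 measured 5.32 and 5.21 FPKM and 8.63, 7.94 and 12.7 FPKM, and rose with a log2 change of 0.96 (SE 0.264, adjusted p = 0.0459), which was lost without tumor 1 (adjusted p = 0.0667). Ccne2 measured 0.0528 and 0.228 FPKM in wild type and 0.946, 0.557 and 0.692 FPKM in the tumors, on a lowest count of 2 fragments, and its log2 fold change of 2.42 (SE 0.736, adjusted p = 0.0591) did not pass.

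**Figure D2:**
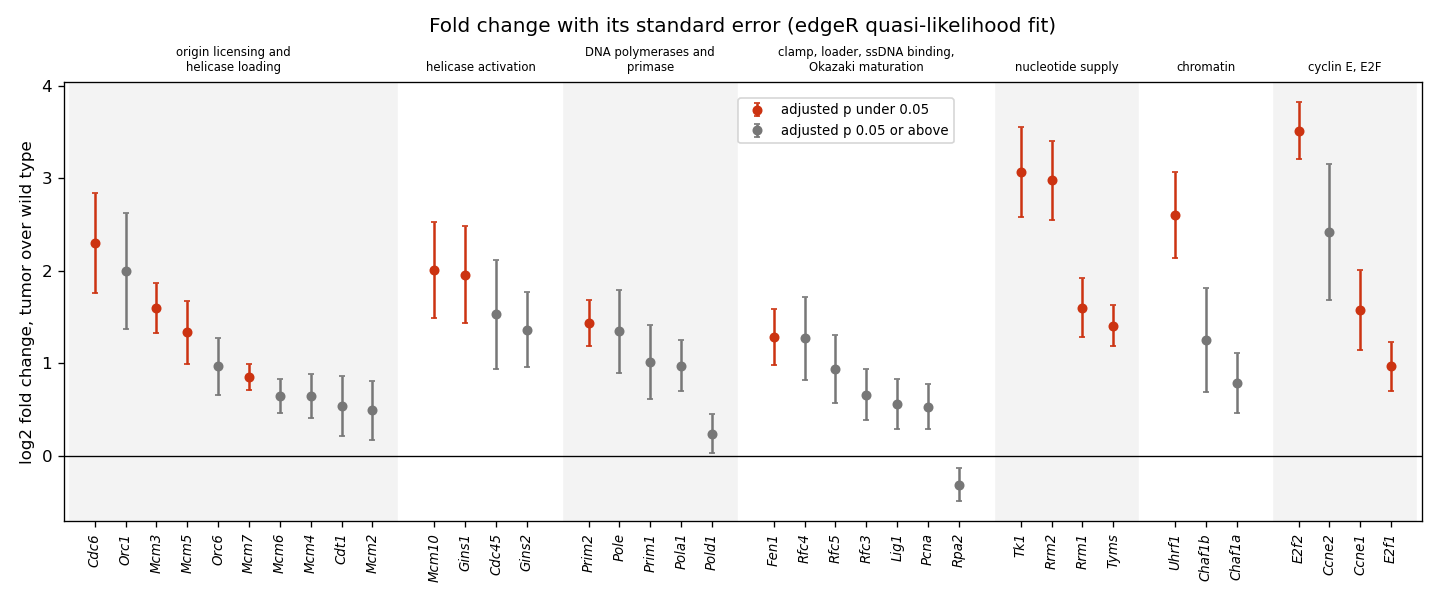
Log2 fold change of tumor over wild type for the 37 genes, with bars of 1 SE, from edgeR's fit on 2 wild-type and 3 tumor libraries. The 16 red genes passed an adjusted p of 0.05, the 21 grey ones did not, and all 4 genes of nucleotide supply are red.

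The fold changes were set against the level in wild type. Of the 14 genes under 2 FPKM on average in wild type 8 rose, with a median log2 fold change of 2.00, and of the 23 genes at or above that level 8 rose, with a median of 0.94. Both the fold change and this split use the wild-type libraries, so they are not independent. Of all tested loci, whatever their level, 18.7% rose, and shares by level were not computed. The 7 genes under 1 FPKM on average in wild type were Orc1, Cdc6, Mcm10, Pole, E2f2, Ccne1 and Ccne2. A count of at least 10 fragments in every library was reached by 35 of the 37 genes, with Orc1 and Ccne2 as the exceptions.

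Set beside the other subunits of their complexes, the members showed uneven changes within one machine. In the MCM2-7 ring 3 of 6 subunits rose, beside 18.7% of all tested loci, and log2 fold changes ran from 0.49 to 1.60. The highest of the 6 subunits was 2.73 and 2.55 times the lowest in the wild-type libraries by FPKM, and 2.07, 2.78 and 1.63 times in tumors 1, 2 and 3. In RPA, the subunit Rpa1 fell from 49.2 and 50.2 FPKM to 18.5, 18.01 and 20.95 FPKM, with a log2 change of -1.33 (SE 0.137, adjusted p = 0.00656), beside Rpa2, while the small subunit Rpa3 measured 13.1 and 12.3 FPKM and 34.9, 19.5 and 28.2 FPKM, a log2 change of 1.16 (SE 0.335, adjusted p = 0.0519). In polymerase epsilon, the histone-fold subunit Pole4 fell from 109.7 and 99.8 FPKM to 39.8, 38.02 and 43.7 FPKM, with a log2 change of -1.41 (SE 0.146, adjusted p = 0.00662), beside Pole and Pole2, whose log2 fold changes were 1.34 (SE 0.451, adjusted p = 0.0751) and 1.61 (SE 0.522, adjusted p = 0.0690). In ribonucleotide reductase, Rrm1 and Rrm2 rose and the p53-induced subunit Rrm2b measured 9.02 and 10.1 FPKM and 7.61, 6.52 and 8.96 FPKM, a log2 change of -0.26 (SE 0.206, adjusted p = 0.366). In polymerase alpha-primase, the regulatory subunit Pola2 rose (log2 fold change 1.39, SE 0.259, adjusted p = 0.0193) beside Prim2. In the clamp loader RFC 0 of 5 subunits and in CAF-1 0 of 3 passed by edgeR. These counts stand beside 18.7% of all tested loci that rose and 15.4% that fell.

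**Figure D3:**
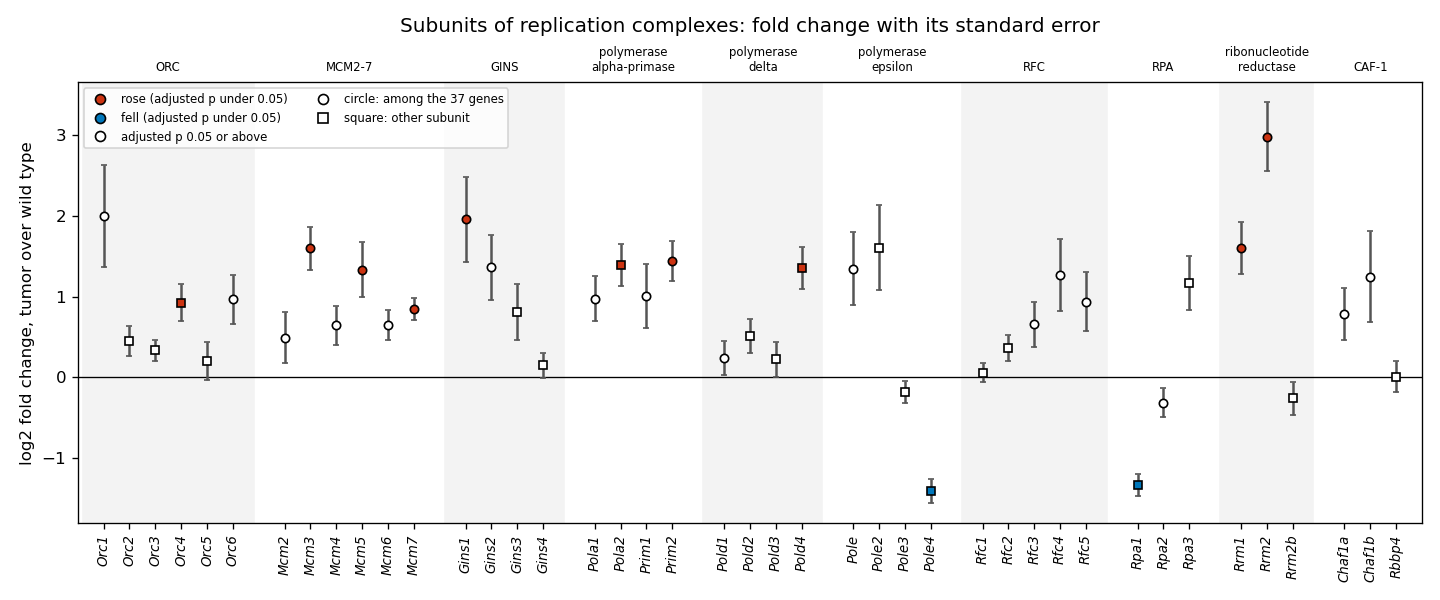
Log2 fold change of tumor over wild type, with bars of 1 SE, for the subunits of 10 replication complexes; circles are among the 37 genes and squares are other subunits. Red subunits rose and blue ones (Pole4 and Rpa1) fell; the MCM2-7 subunits lie between 0.49 and 1.60.

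A list of 59 further replication genes gave 20 that rose and 3 that fell, 33.9% and 5.08% beside 18.7% and 15.4% of all tested loci, with a median log2 fold change of 0.62. The largest rises were those of Clspn, which carries the checkpoint signal at stalled forks (0.0778 and 0.0839 FPKM in wild type, 0.676, 0.566 and 1.61 FPKM in the tumors, log2 fold change 3.57, SE 0.695, adjusted p = 0.0211). Next came Pclaf, a partner of PCNA listed in the files under an older symbol (0.784 and 0.588 FPKM, 5.70, 3.13 and 7.55 FPKM, log2 fold change 3.03, SE 0.509, adjusted p = 0.0155). Dbf4, the activator of the kinase that fires origins, followed (1.06 and 0.574 FPKM, 4.17, 2.93 and 6.33 FPKM, log2 fold change 2.49, SE 0.522, adjusted p = 0.0247), a call lost without tumor 1 (adjusted p = 0.0512). Without tumor 1, 11 of the 59 rose, a share of 18.6% near the 15.9% of all loci that rose in that set. The genes that fell were Rpa1, Pole4 and Shmt1, an enzyme of folate metabolism that feeds thymidylate synthesis (10.3 and 9.24 FPKM, 2.34, 2.80 and 3.09 FPKM, log2 fold change -1.72, SE 0.217, adjusted p = 0.00886).

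Upstream of S phase, a list of G1/S regulators held 35 tested loci, of which 10 rose (28.6%, beside 18.7% of all tested loci) and 5 fell (14.3%, beside 15.4%), with a median log2 fold change of 0.89. The share that fell was near that of all loci, so the falls below are values of single genes. Myc, a transcription factor that promotes growth, measured 1.42 and 1.82 FPKM in wild type and 17.3, 21.5 and 26.03 FPKM in the tumors, with a log2 change of 3.74 (SE 0.252, adjusted p = 0.00359). E2f8, an E2F factor that represses its targets, measured 0.176 and 0.190 FPKM and 1.23, 1.46 and 2.60 FPKM, with a log2 change of 3.32 (SE 0.506, adjusted p = 0.0127). Cdkn1a, an inhibitor of cyclin-dependent kinases, also rose, from 14.5 and 15.6 FPKM to 156, 159.8 and 42.1 FPKM, with a log2 change of 3.04 (SE 0.684, adjusted p = 0.0293). That call was lost without tumor 1 (adjusted p = 0.0624). The largest fall was that of Lin52, a part of the DREAM complex, from 9.69 and 11.7 FPKM to 4.71, 4.11 and 2.55 FPKM (log2 fold change -1.44, SE 0.326, adjusted p = 0.0296). Cdk2, the kinase partner of cyclin E, fell from 23.8 and 24.2 FPKM to 7.55, 8.48 and 11.4 FPKM (log2 fold change -1.34, SE 0.206, adjusted p = 0.0131); its cyclin Ccne1 rose. Tfdp2, a partner of E2F factors, fell from 5.39 and 5.98 FPKM to 2.98, 3.27 and 2.19 FPKM (log2 fold change -0.96, SE 0.217, adjusted p = 0.0296), a call lost without tumor 1 (adjusted p = 0.0594). Without tumor 3, 17 of the regulators rose (48.6%, beside 18.7% of all loci), and without tumor 1, 3 fell (8.57%, beside 13.7%).

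The list held 7 inhibitors of G1 kinases, of which Cdkn1a passed, and they did not share one order over the tumors. Given here after their values were seen, Cdkn2a measured 0.347 and 0.333 FPKM in wild type and 353, 188 and 2.22 FPKM in tumors 1, 2 and 3, and its neighbour Cdkn2b 2.51 and 2.64 FPKM and 55.3, 62.8 and 1.26 FPKM. Cdkn1a was lowest in tumor 3 too, while Cdkn2c measured 11.9, 11.96 and 43.4 FPKM in the tumors and was highest there. Cdkn1c was below wild type in every tumor, with 76.1 and 75.6 FPKM in wild type and 24.8, 28.1 and 2.69 FPKM in the tumors, and had the lowest log2 fold change of the list, -1.98 (SE 0.913, adjusted p = 0.150). Cdkn1b was below wild type too, at 45.01 and 51.6 FPKM and 29.2, 26.9 and 38.1 FPKM (log2 fold change -0.63, SE 0.197, adjusted p = 0.0640). Cdkn2d overlapped between the groups, at 18.5 and 15.4 FPKM and 17.4, 16.4 and 16.1 FPKM (log2 fold change 0.02, SE 0.182, adjusted p = 0.926). Tumor 3 had the highest level of most replication genes and far less Cdkn2a than the other tumors, and a link between these was not tested. Of the 35 tested loci of the list, 20 were highest and 13 lowest in tumor 3, beside 6175 and 4923 of all 15241. Those lowest there include Ccnd1 (111, 161 and 43.6 FPKM in tumors 1, 2 and 3) and Ccnd2 (103, 130 and 33.1 FPKM), also named after their values were seen. Cdkn2a and Cdkn2b had log2 fold changes of 9.01 (SE 2.62, adjusted p = 0.0528) and 4.001 (SE 1.63, adjusted p = 0.117). Neither passed with all 3 tumors, and both passed without tumor 3 (adjusted p = 0.00439 and 0.00408), as did Cdkn1c, Cdkn1b and Cdkn2c (adjusted p = 0.00774, 0.0204 and 0.0399). The fold changes below 0 of Cdkn1c and Cdkn1b stayed below 0 in that set.

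The tumors differed among themselves more than the wild-type libraries did. In log2 CPM (counts scaled by library size, itself adjusted by edgeR's TMM factor), the median SD over the 37 genes was 0.42 in tumors and 0.10 in wild type. The same medians over all tested loci were 0.34 and 0.09. Tumor 3 had the highest FPKM of the 3 tumors in 34 of the 37 genes, with Ccne2, E2f2 and Rpa2 highest in tumor 1, and over all tested loci tumor 3 was highest in 6175 of 15241. Tumor 2 was the lowest in 24 genes and tumor 1 in 12. The median difference in log2 CPM to the wild-type mean over the 37 genes was 1.07 in tumor 1, 0.82 in tumor 2 and 1.69 in tumor 3. Summed over the 37 genes, the level was 211 and 206 FPKM in wild type and 357, 295 and 485 FPKM in the tumors. The highest tumor library was 1.71 times the lowest in the median gene, and the largest difference of tumor 3 to the mean of the other tumors was that of Cdc45 (1.32 in log2 CPM), followed by Chaf1b (1.29). Leukocyte markers were also highest in tumor 3 in 11 of 13, with a summed level of 809 FPKM there against 352 to 435 FPKM in the other tumors, and their part in the differences between tumors was not tested. Without tumor 3, edgeR called 13 of 36 members tested as higher (36.1%, beside 18.7% of all loci tested), and without tumor 2 it called 21 of 37 (56.8%, beside 20.1%).

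In a list of 26 mitosis genes, such as Mki67, Plk1 and Aurkb, 24 rose and 0 fell, with a median log2 fold change of 3.03. The share that rose was 92.3%, beside 18.7% of all tested loci that rose and 15.4% that fell. All 26 were highest in tumor 3, as were 6175 of 15241 tested loci. The medians of the difference to wild type over the list were 2.81, 2.45 and 3.45 in tumors 1, 2 and 3. Mki67, the common marker of cycling cells, measured 0.517 and 0.496 FPKM in wild type and 7.30, 6.34 and 11.2 FPKM in the tumors. The difference between the mitosis list and the replication genes was not tested.

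**Figure D4:**
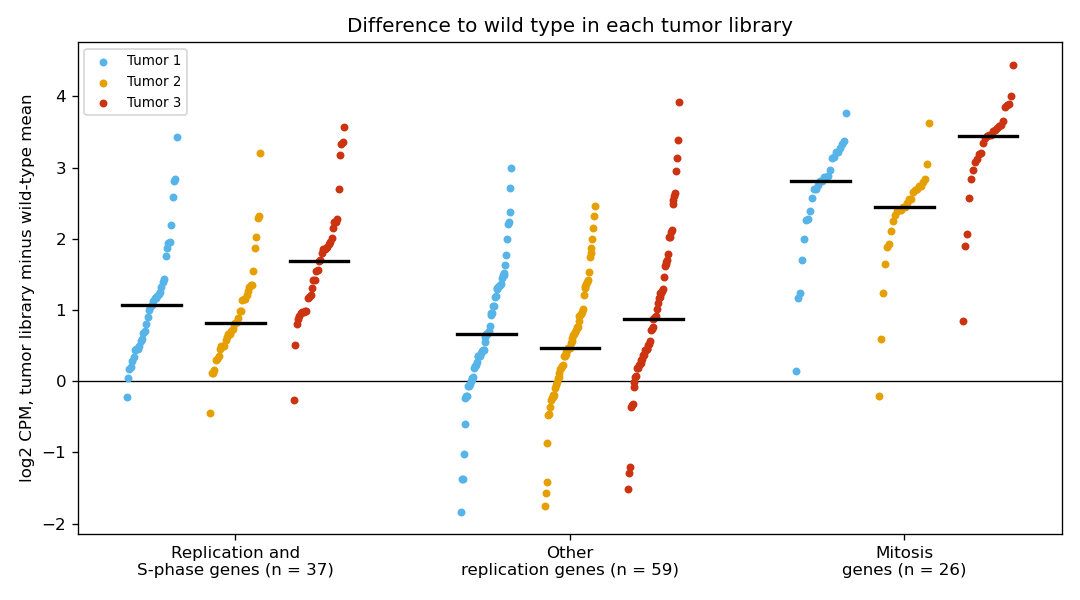
Difference in log2 CPM between each tumor library and the mean of the wild-type libraries; each point is 1 gene and black bars are medians, for the 37 replication and S-phase genes, 59 other replication genes and 26 mitosis genes. The medians of the 37 genes are 1.07, 0.82 and 1.69 in tumors 1, 2 and 3, and tumor 3 has the highest median in each list.

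Some loci share sequence with neighbours. By GENCODE M21 on GRCm38, 13 of the 37 genes have an exon that overlaps an exon of another gene. Among those that rose these are Tk1 (with Afmid), Fen1 (with Tmem258 and Gm10143) and Mcm7 (with Ap4m1, Cops6 and 2 microRNA genes). No source used here gives the strand setting of the counting, so reads of such neighbours cannot be told apart. Pcna and Tyms have named pseudogenes, which could take a part of their reads.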

How the data were processed

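RNA from wild-type uvea (2 libraries) and from Lats1/2-mutant eye tumors (3 libraries) was sequenced after TruSeq library preparation, per the labels' protocols. TopHat2 2.0.9, Cufflinks 2.2.1, Cuffdiff and the build mm10 are named in the submitters' processing notes; no source used here gives the annotation, the read filters or the strand setting. The authors deposited, per the file headers, an unscaled estimated count of fragments and an FPKM value for each of 24768 loci and each library; 2 further value columns per library were not used. Replicate numbers in the table and in the labels start differently, so they only name libraries.

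Estimated counts were rounded to whole numbers (98.6% to 98.7% per library lay within 0.01 of one). The 1627 loci without a gene name held 1.52% to 4.37% of fragments and stayed out. Named loci entered edgeR 4.0.16 (R 4.3.3), with filterByExpr, TMM scaling and the quasi-likelihood test of tumor against wild type, and two-sided p-values were adjusted by Benjamini-Hochberg over 15241 loci. Adjusted p-values are from edgeR unless another tool is named. "Rose" and "fell" mean an adjusted p under 0.05, and an SE is the absolute log2 fold change over the root of the F statistic. Levels are FPKM. The procedure was tested on simulated data with the same dispersion in both groups, so that test does not cover the wider spread of the tumors. DESeq2 1.42.0, limma 3.58.1 (voom, and trend on log2(FPKM + 1) and log2(FPKM + 0.1)), library size scaling, no filter, unnamed loci kept, a replicate block and leaving out libraries were alternatives.

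The members and lists were chosen with earlier results of these data known. By rule, up to 3 changed genes of each role are given with all values, and members that did not pass are named. The 3 largest rises and falls of the further replication genes and of the G1/S regulators are given likewise. The rule was not applied to the mitosis list, of which only Mki67 is given with its levels. In each list named here, genes were matched by symbol, except that Pclaf, Supt16, Adgre1 and Hbb-bs were matched by another symbol. Ticrr, of the further replication genes, and Hbb-bt, of the red blood cell markers, matched no locus and were left out.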

Additional observations from a re-analysis of the deposited data

How the results depend on the processing

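Of 664 values of single members under all alternatives, 0 changed direction; 545 kept their side of the threshold, 88 lost it and 31 gained it. Of 450 values of the 25 other genes given with statistics, 7 changed direction, all of them of the Cdkn2d log2 fold change, which was near 0 throughout (-0.0076 with DESeq2, -0.019 on both FPKM scales, and, leaving out 1 library, -0.15 to 0.11 with edgeR and -0.14 to 0.12 with DESeq2, -0.028 without tumor 1). Of the 16 genes that rose, 7 passed in all 9 settings with 5 libraries, and 9 passed with each tumor library left out. The count of members that rose was 10 with limma-voom (27%, beside 16.3% of all tested loci). With a replicate block 7 members rose (18.9%), and of all 15241 loci 3067 were called (1706 higher, 1361 lower). In that fit 9 other replication genes rose (15.3%) and 2 G1/S regulators fell (5.71%). Same-numbered libraries deviated together with a correlation of only 0.013 and 0.027 over 15241 loci, so the numbers of the block pair nothing known. Members that fell numbered 0 throughout. On log2(FPKM + 1) and log2(FPKM + 0.1), 3 of 35 G1/S regulators fell (8.57% in each), beside 3098 and 2817 of 15241 tested loci.

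Leaving out 1 library with edgeR, all loci called ranged from 0 to 6144 (higher 0 to 3032, lower 0 to 3112), members that rose from 0 to 21, other replication genes that rose from 0 to 23 and fell from 0 to 4, G1/S regulators that rose from 0 to 17 and fell from 0 to 7, and mitosis genes that rose from 0 to 25. The value 0 came from leaving out either wild-type library, which left 4085 and 3996 loci with an unadjusted p under 0.05; the lone wild-type library was then assumed to vary like the tumors. With DESeq2, chosen after seeing the data, leaving out wild-type library 1 or 2 gave 2843 and 2798 loci (1657 and 1607 higher, 1186 and 1191 lower), 8 and 7 members, 9 and 6 other replication genes that rose, and 6 and 8 G1/S regulators that rose with 1 that fell in each. Without wild-type library 2, the share of other replication genes that rose by DESeq2 was near that of all tested loci. That count therefore shows no excess over all loci. Without wild-type library 1 the share was above that of all tested loci, and each of these fits rests on 1 wild-type library. Depth limits Orc1 and Ccne2, with 2 to 3 fragments in a wild-type library.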
